A study of Mus musculus with 4 samples.

Results

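Skeletal myogenesis and sarcomere genes were followed in lymphatic endothelial cells (LECs) sorted from mouse embryos in which the transcription factor gene Osr1 was targeted. The set held 38 genes of the 55385 gene IDs in the table, and every symbol was found. The genes were chosen by symbol from what is known of muscle, with earlier results of these data known. It was made up of 7 regulators of myogenesis, 24 genes of the sarcomere and 7 other muscle genes of cell fusion, adhesion, the neuromuscular synapse, calcium release and energy supply. Of the 38, 36 averaged 10 or more normalized counts over the 4 libraries and were tested, and Myf6 and Myl3 were not.

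The libraries, 2 labelled Osr1 KO and 2 of Osr1 controls, came from cells of E13.5 mouse embryos (E, embryonic day) that were sorted as CD45-, PDPN+ and CD31+, that is without the leukocyte antigen and with podoplanin and the endothelial protein PECAM1. The embryos labelled Osr1 KO were Osr1 GCE/GCE, homozygous for a knock-in of a GFP reporter cassette (GCE) at Osr1, and the Osr1 controls were Osr1+/+ and Osr1 GCE/+ by the study's description and wild type by the sample labels. For each library the cells of 8 to 10 embryos were pooled. They came from embryos without their limbs, tail, inner organs and the cranial tissue above the tongue. The allele was present in every cell of the embryo and not in LECs alone, and how many Osr1+/+ and Osr1 GCE/+ embryos went into a control pool is not given in the sources. As 2 pools stood for each group, p-values refer to pools and not to single embryos. In the main test (limma) the spread between pools of each gene was also adjusted towards a trend over all genes. An exact permutation test of 2 against 2 libraries cannot go below a two-sided p of 0.333.

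Skeletal muscle forms from progenitors that carry the transcription factors Pax3 and Pax7 and become myoblasts under the control of the helix-loop-helix factors Myf5, Myod1, Myf6 and Myog. Myoblasts leave the cell cycle, fuse into fibres and switch on the genes of the sarcomere, in which thick filaments of myosin slide along thin filaments of actin, tropomyosin and troponin between Z discs. LECs do not build sarcomeres, while some of these genes, among them Mef2c, Tpm1 and Tpm2, are also used by endothelial or smooth muscle cells. In RNA from a sorted bulk sample, fewer cells of a type and less RNA per cell cannot be told apart.

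Osr1 itself went against the labels. It had 168 and 303 normalized counts in the libraries labelled Osr1 KO, against 32.8 and 30.4 in Osr1 controls (log2 fold change 2.80, standard error 0.31, adjusted p = 0.0262 in limma), and reads from a transcript of the targeted allele cannot be told apart here from reads of the intact gene. Directions are therefore those of the libraries as labelled. The libraries held 37865172 and 31586765 reads in genes under that label and 53438492 and 36535451 in Osr1 controls, with mitochondrially encoded genes at 2.65% to 3.26%. The sort markers Pdpn and Pecam1 were present in each library and differed between the groups. Pdpn had 4936 and 5609 normalized counts in the libraries labelled Osr1 KO and 3318 and 3564 in Osr1 controls (log2 fold change 0.61, adjusted p = 0.0329 in limma). Pecam1 had 28393 and 25400 against 23596 and 22279, without overlap (0.23, adjusted p = 0.204 in limma). Ptprc, which encodes CD45, had 70.6 and 54.5 against 62.0 and 61.7.

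Of the 36 muscle genes tested, 11 were called lower and 1 higher in the libraries labelled Osr1 KO, whose Osr1 counts were higher. A call needed an adjusted p under 0.05 in limma with Benjamini-Hochberg adjustment over all genes, a log2 fold change of at least 0.3 in size and a mean above 1 TPM, a level scaled for gene length and depth. Over all 19479 genes tested the same rule called 1.75% lower and 1.13% higher. The genes called lower were Myog and 10 sarcomere genes, and the gene called higher was Mef2c. The mean was lower for 35 of the 36 genes, against 52.8% of all genes tested. For 31 genes both libraries labelled Osr1 KO lay below both Osr1 controls, which held for 28.9% of all genes tested. The median log2 fold change was -0.82 over the 23 sarcomere genes tested and -0.81 over the 7 other muscle genes, whereas over all genes tested it was -0.02. A log2 fold change of -0.5 or lower was found in 28 of the 36 genes and in 14.7% of all genes tested. An unadjusted p under 0.05 in limma was found for 29 of the 36 genes and for 4169 of all 19479.

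**Figure D1:**
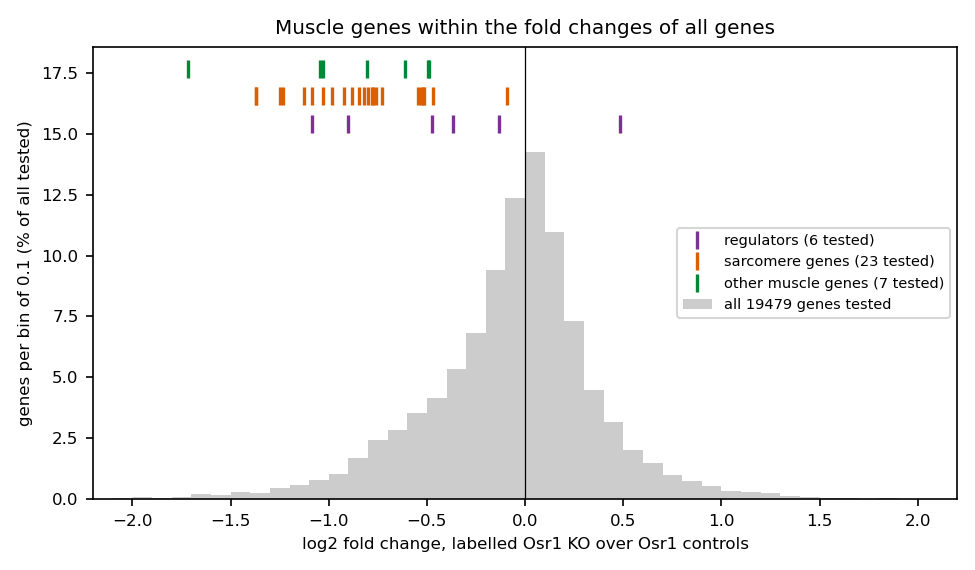
Fold changes of muscle genes within all genes tested. The grey bars give the percentage of the 19479 genes tested in bins of log2 fold change of the libraries labelled Osr1 KO over Osr1 controls, and each coloured tick is 1 muscle gene, drawn above the bars by class. All 23 sarcomere genes lie left of 0, between -1.37 and -0.09, and Mef2c is the 1 tick right of 0.

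Summed over the set, the muscle genes made up 376 and 387 TPM in the libraries labelled Osr1 KO and 633 and 665 TPM in Osr1 controls. On this scale, which allows for gene length, levels of different genes can be set side by side. Tpm1 had the highest mean level of the 38 genes with 108 TPM, while Myf6 had the lowest with 0.104 TPM. The median gene of the set had 4.89 TPM.

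Among the regulators, Myog fell, Mef2c rose and the other 4 tested were not called. Myog, the factor that drives myoblasts into terminal differentiation (ENSMUSG00000026459.5, chr1:134289989-134292548 of mm10), had 219 and 197 normalized counts in the libraries labelled Osr1 KO, against 447 and 439 in Osr1 controls. The groups did not overlap, and the replicates lay close together in both (log2 fold change -1.09, standard error 0.16, adjusted p = 0.0276). Myod1, which commits cells to the muscle lineage, had 98.8 and 109 normalized counts against 164 and 231 in Osr1 controls. Its groups did not overlap either, and its log2 fold change of -0.90 had an adjusted p of 0.0758.

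The progenitor factors differed less between the groups, and their ranges overlapped. Pax3, which marks progenitors from the dermomyotome, had 131 and 95.4 normalized counts in the libraries labelled Osr1 KO and 145 and 105 in Osr1 controls (log2 fold change -0.14, adjusted p = 0.815). Pax7, which marks the progenitors that persist into fetal life, had 115 and 96.6 against 165 and 113 (log2 fold change -0.37, adjusted p = 0.449). For both genes replicate 1 of each group was the higher replicate. Myf5, the earliest of the myogenic helix-loop-helix factors, had 31.5 and 21.1 normalized counts against 28.5 and 46.1 in Osr1 controls (log2 fold change -0.48, adjusted p = 0.517). The counts of Myf6, the neighbour of Myf5 on chromosome 10, were 0 in both libraries labelled Osr1 KO and 3 reads in each of the Osr1 controls, too low to be tested or compared.

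As a share of the control mean of normalized counts, the regulators differed widely. Mef2c stood at 139.7%, Pax3 at 91.0%, Pax7 at 76.3%, Myf5 at 70.5%, Myod1 at 52.6% and Myog at 47.0%, and Myf6 had no reads in the libraries labelled Osr1 KO. The order within this ranking changed with single libraries left out. Without replicate 2 labelled Osr1 KO and without Osr1 controls replicate 2, the fall of Myf5 in log2 terms (-0.20 and -0.14) was smaller than that of Pax7 (-0.24 and -0.64), and without Osr1 controls replicate 1 that of Myod1 (-1.15) was larger than that of Myog (-1.07). The count of Myog was 1.91 and 2.04 times that of Pax7 in the libraries labelled Osr1 KO and 2.72 and 3.88 times in Osr1 controls. These ratios did not overlap, at the smallest p that an exact permutation test allows here (0.333, two-sided). The ratio of Myod1 to Pax7 overlapped, with 0.858 and 1.13 against 0.996 and 2.05. The ranking and the ratios were looked at after the values were seen, and no difference between the fold changes of these genes was tested across all genes.

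Mef2c, a MADS-box factor that acts beside the helix-loop-helix factors in muscle and is also at work in endothelial cells (ENSMUSG00000005583.16, chr13:83504034-83667080), was the only tested gene of the set with a higher mean in the libraries labelled Osr1 KO. It had 8381 and 7701 normalized counts there, against 6074 and 5435 in Osr1 controls, and the groups did not overlap (log2 fold change 0.48, standard error 0.10, adjusted p = 0.0434). At 50.1 and 46.3 TPM against 37.9 and 34.8 TPM it was the most abundant regulator, followed by Myog with 13.8 and 12.5 TPM against 29.4 and 29.5 TPM. Without Mef2c the regulators summed to 24.0 and 22.0 TPM in the libraries labelled Osr1 KO, against 44.6 and 48.1 TPM in Osr1 controls. Without either library labelled Osr1 KO, the calls of Myog and Mef2c were both lost (adjusted p of 0.106 and 0.198 without replicate 1, and between 0.0650 and 0.0657 without replicate 2). Mef2c also lost its call without Osr1 controls replicate 2 (adjusted p = 0.0782), with TMM scaling (0.05003) and in edgeR (0.0530).

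**Figure D2:**
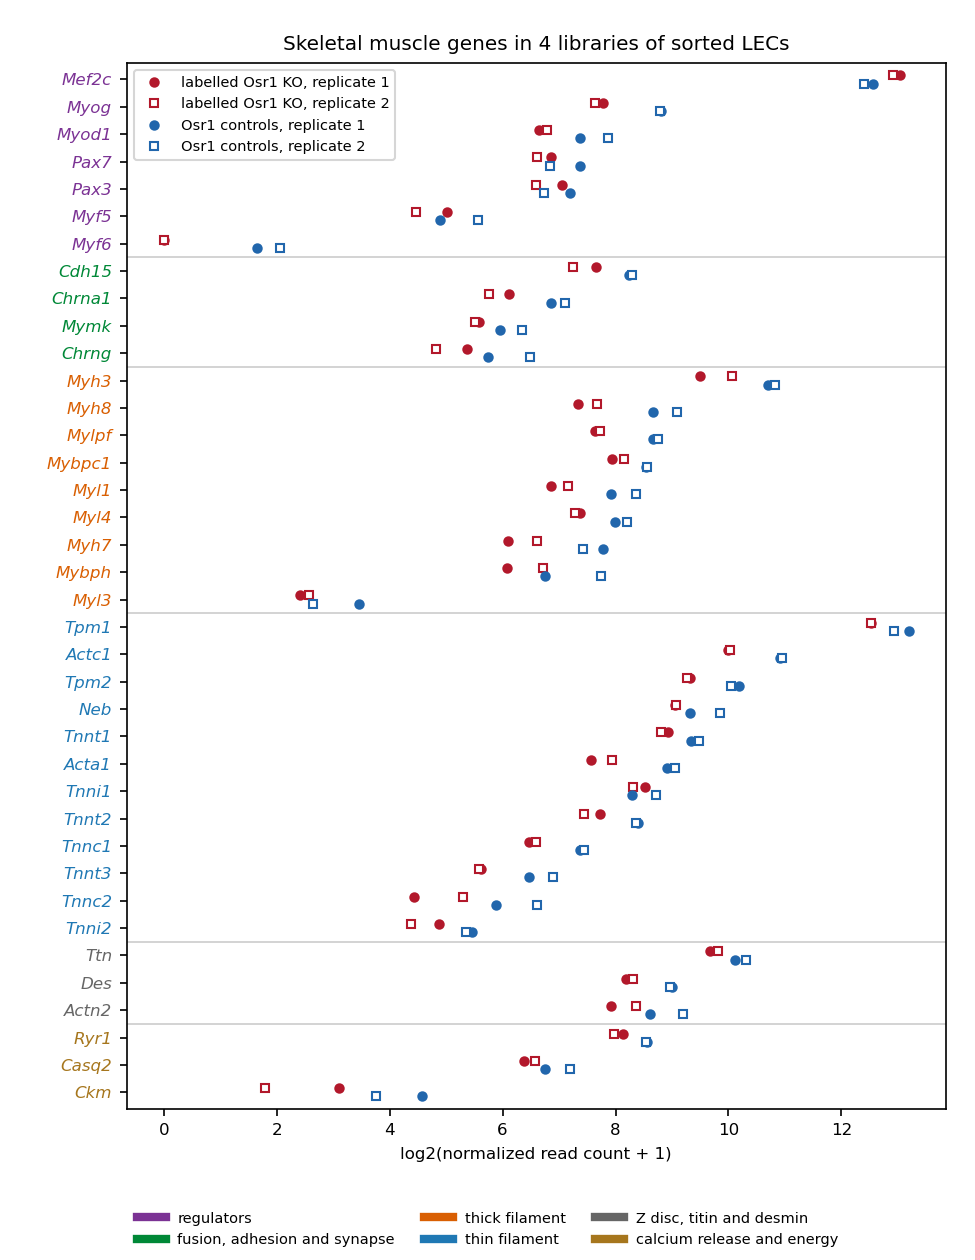
Levels of the 38 muscle genes in each library. The horizontal axis gives log2(normalized read count + 1), each row is a gene, rows are grouped by role and coloured by it, and red points (upper) are the 2 libraries labelled Osr1 KO and blue points (lower) the 2 Osr1 controls, with circles for replicate 1 and open squares for replicate 2. Red lies left of blue without overlap for Myog, the myosins and most thin filament genes, overlaps it for Pax3, Pax7, Myf5 and Tnni1, and lies right of it for Mef2c.

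The start regions of 4 genes are shown because these had the largest falls among the called genes with a single RefSeq start, and they are marked for the letters that the regulators above are known to bind. Each runs from 250 bases before to 50 bases after the start that RefSeq lists on GRCm38.p6, in the direction of the gene. Capitals mark the E-box CANNTG, the letters bound by Myod1, Myog and their relatives. In Myh8 alone they also mark a full match to the 10-base MEF2 pattern searched for, the letters bound by Mef2c and its relatives. Stretches that depart from the pattern were not marked, so a region without a mark can still hold a site.
Myog (chr1:134289754-134290053, plus strand): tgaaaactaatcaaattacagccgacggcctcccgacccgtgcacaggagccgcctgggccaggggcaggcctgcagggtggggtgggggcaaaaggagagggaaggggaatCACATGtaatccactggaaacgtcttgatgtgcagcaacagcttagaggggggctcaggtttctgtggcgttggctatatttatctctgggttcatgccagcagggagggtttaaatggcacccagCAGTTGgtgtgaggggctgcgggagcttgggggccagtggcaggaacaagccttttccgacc
Myh8 (chr11:67276874-67277173, plus strand): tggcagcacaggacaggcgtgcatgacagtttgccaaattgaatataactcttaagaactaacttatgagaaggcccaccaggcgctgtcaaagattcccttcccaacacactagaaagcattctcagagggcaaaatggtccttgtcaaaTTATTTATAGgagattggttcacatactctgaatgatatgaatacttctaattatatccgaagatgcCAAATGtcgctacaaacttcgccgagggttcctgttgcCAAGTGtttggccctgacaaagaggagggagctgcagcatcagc
Acta1 (chr8:123894726-123895025, minus strand): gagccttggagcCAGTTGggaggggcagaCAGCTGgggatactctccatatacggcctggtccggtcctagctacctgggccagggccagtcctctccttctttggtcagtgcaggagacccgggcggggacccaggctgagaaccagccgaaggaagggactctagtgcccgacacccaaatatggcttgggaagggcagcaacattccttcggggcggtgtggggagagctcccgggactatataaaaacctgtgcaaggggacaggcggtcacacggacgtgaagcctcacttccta
Myl1 (chr1:66945007-66945306, minus strand): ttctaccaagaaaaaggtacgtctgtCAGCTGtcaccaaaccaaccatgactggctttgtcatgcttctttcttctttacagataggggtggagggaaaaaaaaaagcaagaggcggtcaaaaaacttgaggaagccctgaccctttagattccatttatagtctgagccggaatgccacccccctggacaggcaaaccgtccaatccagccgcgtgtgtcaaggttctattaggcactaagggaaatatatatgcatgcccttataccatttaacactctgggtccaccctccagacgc
Myog, Myh8 and Acta1 held 2 matches of CANNTG each and Myl1 held 1, and in Acta1 and Myl1 1 of them was CAGCTG, which is itself a CANNTG.

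A start region was listed for 31 of the 38 muscle genes, and the first listed start of each gene was searched on both strands. CANNTG was present in 27 of the 31 (87.1%), against 72.2% of all 27025 start regions of the same length. CAGCTG was present in 12 of the 31 (38.7%), among them Chrna1, Myl1, Mylpf, Acta1, Tnnt2, Tpm2 and Des, against 16.1% of all. The MEF2 site was found in Myh8, Ttn and Casq2 and the CArG box, the letters bound by serum response factor, in Myl3, Acta1 and Actc1, that is in 3 of 31 each (9.68%), against 3.26% and 1.57% of all start regions. A match to such letters is a description of the sequence and was not tested as a site.

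The thick filament genes showed 5 calls among 8 tested, all lower, with a median log2 fold change of -1.01. Myh3, the embryonic myosin heavy chain (ENSMUSG00000020908.14, chr11:67078300-67102291), had 721 and 1074 normalized counts in the libraries labelled Osr1 KO, against 1671 and 1814 in Osr1 controls (log2 fold change -0.98, standard error 0.18, adjusted p = 0.0454). Myh8, the perinatal heavy chain from the same cluster of myosin genes (ENSMUSG00000055775.16, chr11:67277124-67308634), had 160 and 203 against 403 and 540 (-1.37, standard error 0.20, adjusted p = 0.0281). Myh7, the slow and cardiac beta heavy chain (ENSMUSG00000053093.16, chr14:54970684-54994626), had 67.3 and 96.6 against 219 and 170 (-1.25, standard error 0.26, adjusted p = 0.0453). In all 3 the groups did not overlap, and replicate 1 labelled Osr1 KO was the lowest library. Of the 50-base stretches in the exons of these genes, 4.76% of Myh3, 12.1% of Myh8 and 15.6% of Myh7 also occur in another gene, mostly other myosins. A part of their reads may therefore not have been assigned to a single gene, which was not measured.

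Of the 4 light chain genes, whose products sit on the neck of the myosin head, Mylpf and Myl1 were called lower, Myl4 was not called and Myl3 was not tested. Mylpf, the fast regulatory light chain (ENSMUSG00000030672.12, chr7:127208890-127214298), had 198 and 211 normalized counts in the libraries labelled Osr1 KO, against 405 and 429 in Osr1 controls (log2 fold change -1.03, standard error 0.16, adjusted p = 0.0295). It had the highest level of the thick filament genes, with 17.5 and 18.7 TPM against 37.5 and 40.7 TPM. Myl1, the fast essential light chain (ENSMUSG00000061816.15, chr1:66924295-66945404), had 115 and 142 normalized counts against 241 and 328 (-1.13, standard error 0.22, adjusted p = 0.0434). Neither gene had overlapping groups, and 11.7% of the 50-base stretches of Myl1 also occur in a pseudogene, Mylf-ps. The embryonic and atrial light chain Myl4 (log2 fold change -0.78, adjusted p = 0.0618) and the myosin-binding proteins Mybpc1 (-0.51, adjusted p = 0.118) and Mybph (-0.85, adjusted p = 0.247) had lower means without a call. Adora1 overlaps 49.9% of the exon bases of Mybph, so its counts are uncertain. Myl3, the slow and ventricular light chain, had 4.34 and 4.95 normalized counts against 9.97 and 5.23 and was not tested. Without replicate 1 labelled Osr1 KO all 5 thick filament calls were lost (adjusted p from 0.131 to 0.217). Without replicate 2 of that label Myh7, Myl1 and Mylpf lost theirs (0.0547 to 0.0664), without Osr1 controls replicate 1 Myh3 and Myh7 (0.0788 to 0.181) and without replicate 2 Myh3 and Myl1 (0.0541 to 0.177). Myh3 and Myh7 also lost their calls when genes averaging under 50 were left out (0.0509 and 0.0510) and, with Myl1, in edgeR (0.0576 to 0.0658), Myh7 with TMM scaling (0.0513) and Myh3 with library totals (0.0547).

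The makeup of the heavy chains was alike in the 4 libraries. Myh3 held 82.0% and 84.2% of the TPM summed over Myh1, Myh2, Myh3, Myh4, Myh7 and Myh8 in the libraries labelled Osr1 KO, and 80.4% and 80.3% in Osr1 controls. Myh8 held 9.35% and 8.20% against 9.98% and 12.3%. Myh7 held 5.39% and 5.33% against 7.42% and 5.28%. The adult fast heavy chains Myh1, Myh2 and Myh4 together held 2.14% to 3.23% in every library. The shares of Myh3 and Myh8 did not overlap between the groups and those of Myh7 did, but the differences were a few percentage points and an exact permutation test cannot pass a threshold here (smallest p 0.333).

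Among the thin filament genes 4 of 12 were called, all lower, with a median log2 fold change of -0.81. Actc1, the cardiac alpha-actin that is also the main sarcomeric actin of embryonic skeletal muscle (ENSMUSG00000068614.7, chr2:114047282-114053548), had 1014 and 1043 normalized counts in the libraries labelled Osr1 KO, against 1930 and 1976 in Osr1 controls. Replicates differed by a small part of the distance between the groups, and Actc1 had the smallest adjusted p of the set (adjusted p = 0.0233, for a log2 fold change of -0.92 with a standard error of 0.10). Acta1, the skeletal alpha-actin (ENSMUSG00000031972.5, chr8:123891769-123894751), had 189 and 243 against 483 and 530, again without overlap (-1.24 on the log2 scale, with a standard error of 0.18 and an adjusted p of 0.0276). Actc1 was 5.10 and 4.08 times as abundant as Acta1 in TPM in the libraries labelled Osr1 KO and 3.79 and 3.54 times in Osr1 controls.

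The tropomyosins, which wrap around actin, were both called lower. Tpm1 (ENSMUSG00000032366.15, chr9:67022590-67049406), whose products are shared with smooth muscle and non-muscle cells, had 5874 and 5858 normalized counts in the libraries labelled Osr1 KO, against 9339 and 7834 in Osr1 controls (log2 fold change -0.54, standard error 0.10, adjusted p = 0.0406). Tpm2 (ENSMUSG00000028464.16, chr4:43514711-43523765) had 634 and 616 against 1158 and 1054 (-0.82, standard error 0.12, adjusted p = 0.0276). Neither overlapped between groups, and Tpm1 alone made up 85.1 and 85.4 TPM against 141 and 122 TPM. Without both tropomyosins the sarcomere genes still summed to 181 and 199.7 TPM in the libraries labelled Osr1 KO, against 347 and 396 TPM in Osr1 controls. Of the 21 tested, 20 had both libraries labelled Osr1 KO below both Osr1 controls, against 28.9% of all genes tested. Without replicate 1 labelled Osr1 KO all 4 thin filament calls were lost (adjusted p from 0.0720 to 0.168), without replicate 2 of that label those of Tpm1 and Tpm2 (0.0651 to 0.0890), and without Osr1 controls replicate 1 that of Tpm1 (0.0735). Tpm1 was also not called in edgeR (0.0556).

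None of the 7 troponin genes, whose products put the thin filament under the control of calcium, was called. An unadjusted p under 0.05 in limma was found for 6 of them, beside 4169 of all 19479 genes tested. Over all 19479 genes edgeR called 284 and DESeq2 1505, against 0 and 3 of the 7 troponin genes. Tnnt1, the slow troponin T and the most abundant of them, had 487 and 448 normalized counts in the libraries labelled Osr1 KO, against 643 and 710 in Osr1 controls (log2 fold change -0.53, adjusted p = 0.0701). The fast troponin T gene Tnnt3 (-1.09, adjusted p = 0.0683), the cardiac and embryonic Tnnt2 (-0.80, adjusted p = 0.0540), the slow and cardiac troponin C gene Tnnc1 (-0.88, adjusted p = 0.0634) and the fast troponin I gene Tnni2 (-0.78, adjusted p = 0.232) had no overlap between groups either. Tnni1, the slow troponin I, was the exception, with 366 and 315 normalized counts against 312 and 421 (log2 fold change -0.09, adjusted p = 0.819). Tnni1 and Tnnt2 are neighbours on chromosome 1, as are Tnni2 and Tnnt3 on chromosome 7. The fast troponin C gene Tnnc2 had a log2 fold change of -1.37 (adjusted p = 0.0998), but 74.0% of its exon bases also belong to Ube2c, so its counts are uncertain.

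In each of these families the slow form was the more abundant one. The TPM ratio of Tnnt1 to Tnnt3 was 7.33 and 6.84 in the libraries labelled Osr1 KO and 5.27 and 4.31 in Osr1 controls. The ratio of Tnni1 to Tnni2 was 5.39 and 6.60 against 3.04 and 4.40. The ratio of Tnnc1 to Tnnc2, in which the count of Tnnc2 is uncertain, was 3.28 and 1.91 against 2.201 and 1.39. The troponin T and troponin I ratios were higher in both libraries labelled Osr1 KO without overlap, while the troponin C ratio overlapped, and all 3 were chosen after the values were seen. Neb, the giant protein that runs along the thin filament, had 531 and 534 normalized counts against 637 and 919 (log2 fold change -0.52, adjusted p = 0.145).

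At the Z disc, Des was called lower. Des, the intermediate filament protein that ties neighbouring myofibrils together (ENSMUSG00000026208.9, chr1:75360329-75368579), had 291 and 317 normalized counts in the libraries labelled Osr1 KO, against 511 and 496 in Osr1 controls. Its groups did not overlap (log2 fold change -0.73, standard error 0.14, adjusted p = 0.0434), and its call was lost without either library labelled Osr1 KO (adjusted p of 0.243 and 0.105) and in edgeR (0.0605). Ttn, the spring that links the Z disc to the thick filament, had 815 and 897 against 1105 and 1270 (-0.47, adjusted p = 0.0741). With a mean of 0.851 TPM over its long exons Ttn was under the TPM threshold and could not have been called. Actn2, the alpha-actinin that anchors thin filaments in the Z disc, had 242 and 327 against 388 and 586 (-0.76, adjusted p = 0.121). Neither gene overlapped between the groups.

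**Figure D3:**
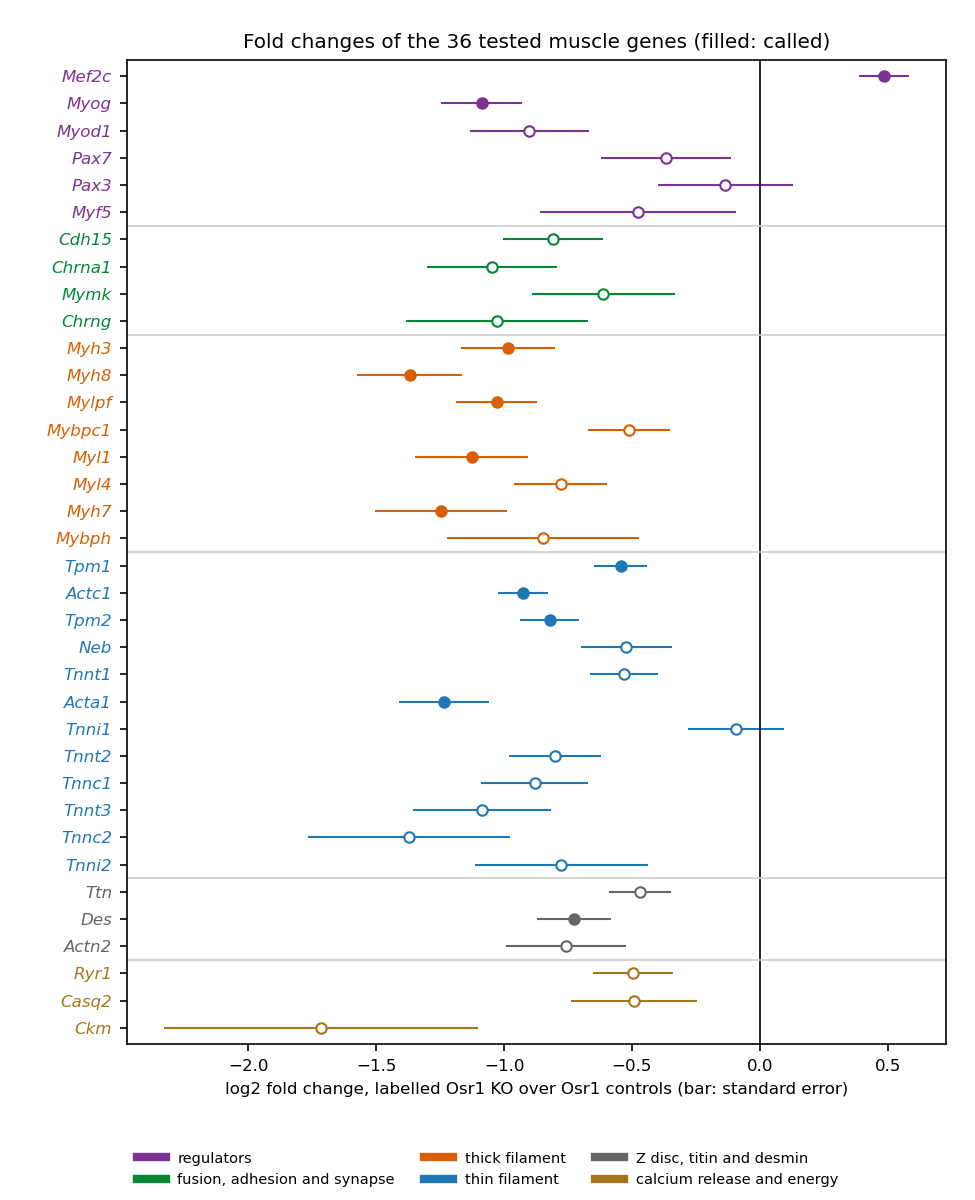
Fold changes of the 36 tested muscle genes. Points give the log2 fold change of the libraries labelled Osr1 KO over Osr1 controls with its standard error as a bar, rows are grouped and coloured by role, and filled points are called genes. The 12 filled points are Myog, Mef2c, 5 thick filament genes, 4 thin filament genes and Des, and Mef2c alone lies right of 0.

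No gene of fusion, adhesion and the synapse was called. In all 4 both libraries labelled Osr1 KO lay below both Osr1 controls, as in 28.9% of all genes tested. Of these 4, 3 had an unadjusted p under 0.05 in limma, against 4169 of all 19479 genes tested. Of the 7 other muscle genes, which include these 4, edgeR called 0 and DESeq2 called 2, Cdh15 and Chrna1, both lower. Over all 19479 genes edgeR called 284 and DESeq2 1505. Cdh15, the M-cadherin of myoblasts and satellite cells, had 199.8 and 151 normalized counts in the libraries labelled Osr1 KO, against 299 and 311 in Osr1 controls (log2 fold change -0.81, adjusted p = 0.0655). Chrna1, the muscle acetylcholine receptor subunit alpha, had a log2 fold change of -1.05 (adjusted p = 0.0657). Chrng, the subunit gamma of the fetal receptor, had -1.03 (adjusted p = 0.147), and Mymk, the membrane protein that lets myoblasts fuse, had -0.61 (adjusted p = 0.252). The mean counts of Chrna1 and Chrng in the libraries labelled Osr1 KO were 48.2% and 47.6% of those in Osr1 controls, near the 47.0% of Myog.

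The 3 genes of calcium release and energy were not called either. In each of them both libraries labelled Osr1 KO lay below both Osr1 controls, as in 28.9% of all genes tested. Casq2, a calsequestrin that stores calcium in the sarcoplasmic reticulum, had the highest level of the 3 per gene length, with a mean of 3.81 TPM, and counted 82.5 and 94.1 normalized counts in the libraries labelled Osr1 KO against 107 and 144 in Osr1 controls (log2 fold change -0.49, adjusted p = 0.295). Ryr1, the channel that releases the calcium, had 278 and 251 against 375 and 370 (-0.50, adjusted p = 0.121). Ckm, the muscle creatine kinase of mature fibres, had 7.60 and 2.48 against 22.8 and 12.6 (-1.72, adjusted p = 0.156), and A930016O22Rik overlaps 15.5% of its exon bases.

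Further genes of the muscle programme, numbered 128 in 5 lists beside the 38. Of the 115 tested, 4 were called lower and 1 higher, beside 1.75% and 1.13% of all genes tested. Their median log2 fold change was -0.38, against -0.80 over the 36 muscle genes of the set, and the difference between the 2 groups of genes was not tested. Of the 115, 88 had a lower mean, against 52.8% of all genes tested. An unadjusted p under 0.05 in limma was found for 49 of the 115, against 4169 of all 19479 genes tested. Among 24 upstream regulators and partners 3 were called lower. They included Eya4, a transcriptional co-activator that is also expressed outside muscle, with 399.5 and 426 normalized counts in the libraries labelled Osr1 KO, against 782 and 669 in Osr1 controls (log2 fold change -0.81, adjusted p = 0.0333). None of 20 genes of progenitor migration and fusion and none of 33 other sarcomere and chaperone genes tested was called, with medians of -0.47 and -0.40. In limma these lists held 8 and 13 genes with an unadjusted p under 0.05. edgeR called 0 in either, and DESeq2 called 6 lower in the first and 1 lower and 1 higher in the second. Over all 19479 genes edgeR called 284 and DESeq2 1505. Of 27 genes of the synapse and of excitation-contraction coupling Srl, which encodes the sarcoplasmic reticulum protein sarcalumenin, was called lower (-0.96, adjusted p = 0.0276). Of 11 genes of energy metabolism Pygm, the muscle glycogen phosphorylase, was called higher, with 3026 and 2643 normalized counts against 1537 and 1816 (0.76, adjusted p = 0.0296). Without replicate 1 labelled Osr1 KO all 5 of these calls were lost (adjusted p from 0.141 to 0.184), and without replicate 2 of that label 3 were kept and that of Eya4 was among those lost (0.0778).

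Markers of other cell types differed between the same libraries, and the part they have in the muscle result was not tested. The 13 LEC markers summed to 4368 and 4127 TPM in the libraries labelled Osr1 KO, against 2480 and 3352 TPM in Osr1 controls, with 6 of 12 tested called higher, among them Mmrn1 (log2 fold change 0.87) and Nrp2 (0.71). Of this list Ccl21a was at 1.05 to 2.17 normalized counts in every library. By RT-qPCR the study reported Ccl21 as enriched in sorted E13.5 LECs over blood endothelial and Osr1+ mesenchymal cells. Stretches shared with other genes were checked for the muscle genes alone and not for Ccl21a. The 15 fibroblast and connective tissue markers summed to 1693 and 1962 TPM against 3263 and 2664 TPM, with 5 called lower, among them Crabp1 (-0.93) and Osr2 (-0.83). The 14 smooth muscle and pericyte markers summed to 355 and 332 TPM against 677 and 432 TPM, with Acta2 (-1.13) and Tagln (-1.18) called lower. The 10 tendon and cartilage markers summed to 245 and 269 TPM against 530 and 348 TPM, with Tnmd (-1.83) and Fmod (-0.94) called lower.

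The list of cardiac markers held 16 genes, of which Myl4 and Tnnt2 belong to the set itself. The other 14 summed to 16.2 and 16.0 TPM in the libraries labelled Osr1 KO, against 27.5 and 27.4 TPM in Osr1 controls. Of 9 of these tested Gata4 was called lower (-1.13), and 5 had an unadjusted p under 0.05 in limma, against 4169 of all 19479 genes tested. Of the 9, 7 had a lower mean, and 6 were lower without overlap, against 28.9% of all genes tested. Myh6, the cardiac alpha heavy chain, had 13.03 and 16.1 normalized counts against 63.4 and 28.3. With Myl7, Ryr2 and Tbx5 (log2 fold changes of -1.95, -0.73 and -0.77) Myh6 was lower without overlap and without a call, 4 genes named after their values were seen. The means of Tnni3 (0.20) and Mybpc3 (0.02) were higher, and with Hcn4 (-0.19) these genes had overlapping groups. Nppa had 0 and 3.72 normalized counts against 0 and 0, and Nppb, Nkx2-5, Myl2 and Sln also averaged under 10. The 12 neuron and glia markers summed to 257 and 299 TPM against 407 and 352 TPM, with Erbb3 (-0.62) called lower. The 11 blood cell markers summed to 1851 and 1109 TPM against 1889 and 1240 TPM with 0 called by limma, edgeR or DESeq2 and 0 at an unadjusted p under 0.05 in limma. The 10 markers of blood endothelial cells summed to 565 and 504 TPM against 807 and 546 TPM, with Gja5 (-1.81) called lower. Of the 18 marker calls, 1 (Acta2) was kept without replicate 1 labelled Osr1 KO and 7 without replicate 2 of that label (adjusted p of the calls lost from 0.0630 to 0.258), and 13 and 18 were kept without Osr1 controls replicates 1 and 2.

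The 12 thin filament genes summed to 226 and 230 TPM in the libraries labelled Osr1 KO, against 403 and 407 TPM in Osr1 controls. The 9 thick filament genes summed to 47.2 and 58.2 TPM in the libraries labelled Osr1 KO, against 100.2 and 117 TPM in Osr1 controls. The sums of the smooth muscle, fibroblast and tendon lists were higher in Osr1 controls replicate 1 than in replicate 2, in TPM and in normalized counts. Those of the muscle groups were lower in replicate 1 in TPM, but in normalized counts the thin filament sum (15190 and 14200.2 in Osr1 controls replicates 1 and 2) and that of the regulators were higher there. Which cells the muscle transcripts came from was not measured.

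**Figure D4:**
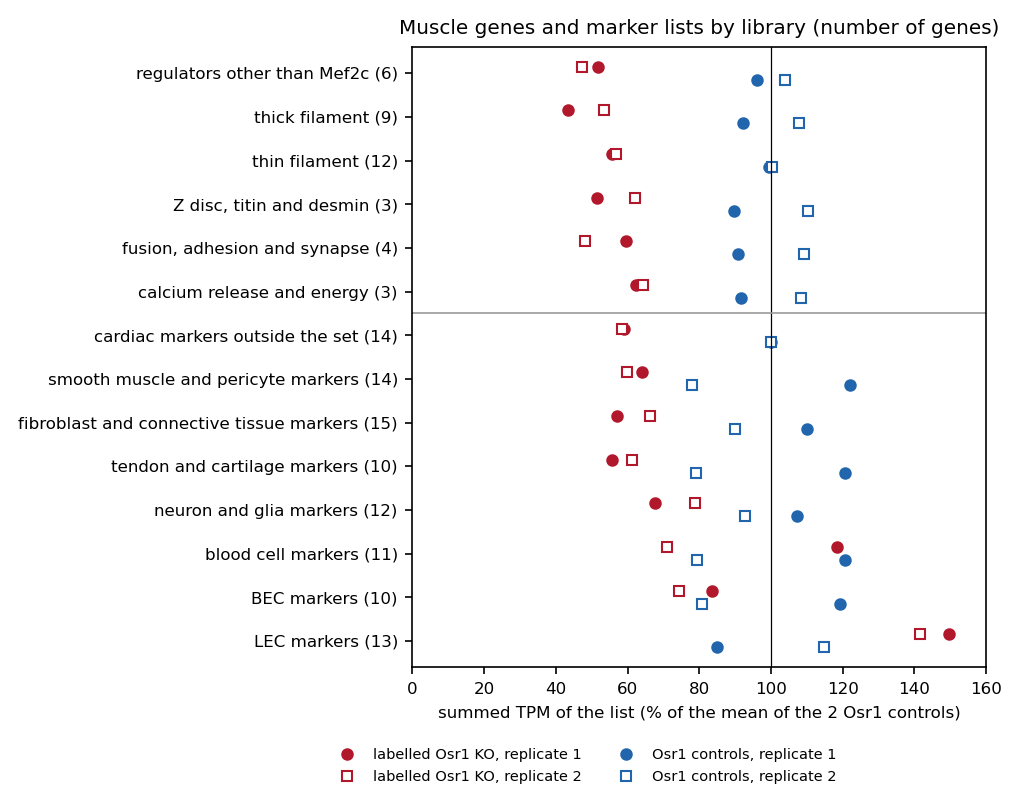
Summed levels of muscle genes and of marker lists in each library. The horizontal axis gives the summed TPM of a list as a percentage of the mean of the 2 Osr1 controls, red points (upper) are the libraries labelled Osr1 KO and blue points (lower) Osr1 controls, with circles for replicate 1 and open squares for replicate 2, and the number of genes stands beside each name. The 6 muscle groups above the horizontal line have both red points left of both blue ones, as have the cardiac, smooth muscle, fibroblast, tendon and neuron lists, and the LEC list has them to the right.

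The direction of the muscle genes held with each library left out, apart from Pax3, which was higher in the libraries labelled Osr1 KO without their replicate 2 and without Osr1 controls replicate 1, and Tnni1, which was higher without replicate 2 of either group. The calls depended on single libraries. Without replicate 1 labelled Osr1 KO none of the 12 calls was kept. Without replicate 2 of that label 4 were kept, namely Myh3, Myh8, Acta1 and Actc1. Without Osr1 controls replicate 1 or replicate 2, 9 were kept each time. Over all genes 562 calls were made with every library, against 25 without replicate 1 labelled Osr1 KO.

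**Figure D5:**
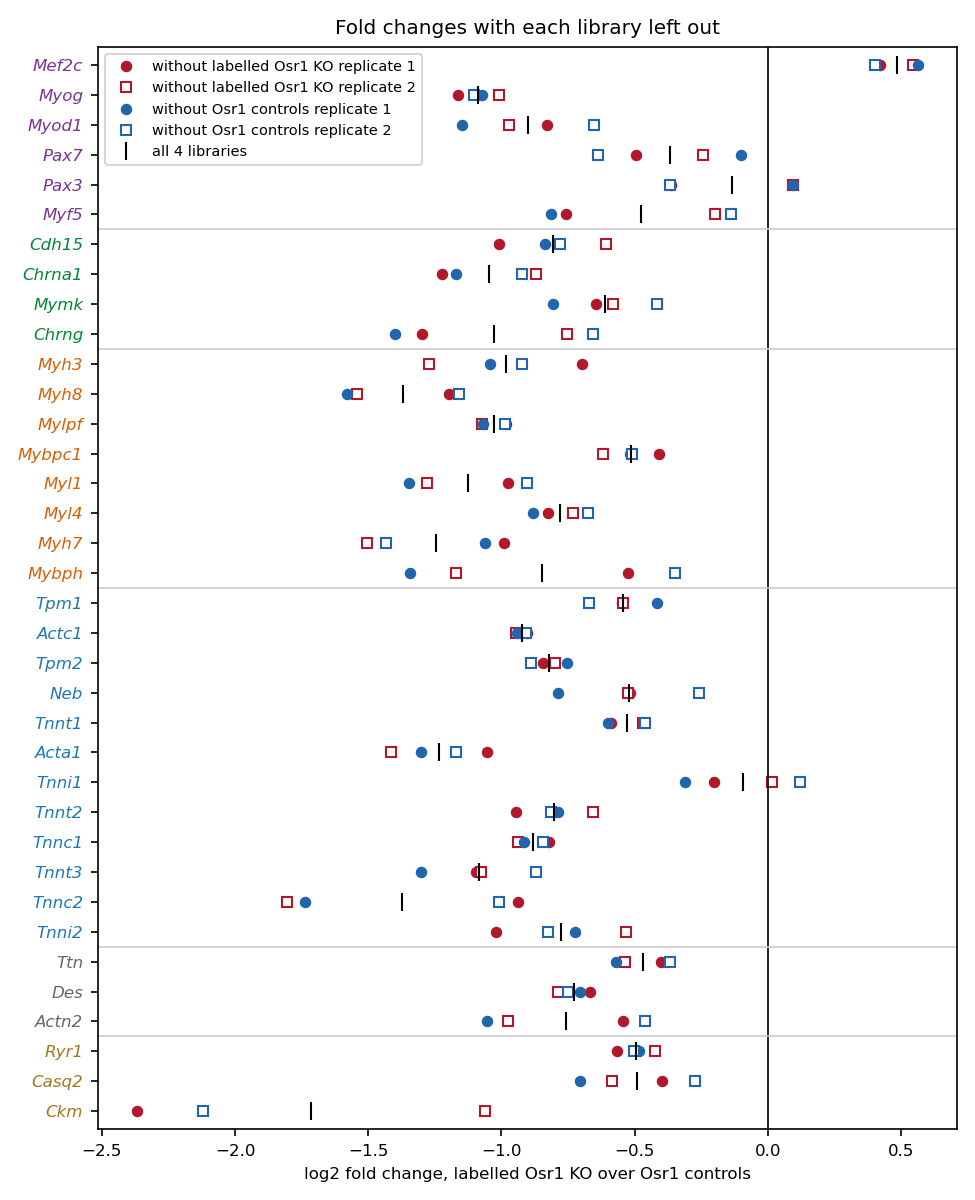
Fold changes of the 36 tested muscle genes with each library left out. The horizontal axis gives the log2 fold change of the libraries labelled Osr1 KO over Osr1 controls, black ticks are the values with all 4 libraries, red points leave out a library labelled Osr1 KO and blue points an Osr1 control, with circles for replicate 1 and open squares for replicate 2. Pax3 and Tnni1 have points on both sides of 0, and the points of Actc1, Mylpf, Tpm2 and Des lie close to their ticks, while Ckm averaged under 10 without Osr1 controls replicate 1 and has no point there.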

How the data were processed

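RNA of sorted LECs was measured in 4 libraries. Per the labels and the study's methods, libraries were made with TruSeq V2, a kit that keeps no strand, and the authors used STAR (genome mm10), then featureCounts per gene, in versions the sources do not give. The deposited signal values are these counts after division by DESeq2 size factors. Whole reads were recovered from them (100% of values within 0.001 reads), with size factors of 0.921 and 0.807 for the libraries labelled Osr1 KO and 1.40 and 0.955 for Osr1 controls. GENCODE release 21 held 55144 of the 55385 gene IDs and gave their symbols, coordinates and the exon lengths behind TPM.

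limma 3.58.1 (lmFit, then eBayes with its trend and robust settings, R 4.3.3) compared the groups on log2 of the normalized count plus a pseudocount of 1. Genes averaging under 10 were left out, and fold changes of low genes are understated on that scale. The alternatives were TMM scaling, library totals, DESeq2 1.42.0 or edgeR 4.0.16 on recovered reads, limma with both settings off, no filter or a minimum of 50, pseudocounts of 0.5 and 5, no fold or TPM threshold, a replicate block and each library left out. A crossed block, the searches for CAGCTG, MEF2 and CArG letters and the limit to genes with 1 start were added after seeing the data. The fits were tested on simulated counts before use.

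Full values are given for each called gene, each regulator and the gene of each role with the highest mean TPM. Genes outside the set are named as up to 4 called genes per muscle list and 2 per marker list with the smallest adjusted p, plus defining markers averaging under 10, and 2 genes that this rule names are not reported here. The members and lists were chosen with earlier results of these data known. Start regions came from RefSeq on GRCm38.p6. Plots used matplotlib 3.10.9 under Python 3.11.15.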

Additional observations from a re-analysis of the deposited data

How the results depend on the processing

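With 2 libraries a group, calls moved with the method, while no called gene changed direction. Pax3 and Tnni1, neither of them called, changed direction with single libraries left out. Over 572 refits of single genes 486 gave the same call, 31 added a call and 55 lost it, and none turned a called gene round. DESeq2 and the fit with no filter each called 19 muscle genes lower (2 regulators and 2 of the other muscle genes in both), against 11 (1 regulator, 10 sarcomere genes and 0 other muscle genes). edgeR called 6 lower (5 sarcomere genes) and 0 higher, and TMM scaling also 0 higher, with Mef2c at an adjusted p of 0.05003. Library totals called 1 of the other muscle genes lower. limma without its trend and robust options called 0 regulators, 0 sarcomere genes and 0 genes in either direction (adjusted p from 0.211 to 0.234), with 28 of 36 at an unadjusted p under 0.05.

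The replicate number as a block left 5 sarcomere genes and 6 genes in all called lower and 0 higher. The labels do not say that a replicate number marks a shared litter or day, so the numbers were not taken as pairs. The deviations of same-numbered libraries correlated at -0.118 over genes, which with 2 libraries a group cannot show whether the numbers mark pairs. A crossed pairing, added after seeing the data, called 16 lower, 2 of them other muscle genes. Over all genes 562 calls were made, against 1505 in DESeq2, 284 in edgeR, 1120 with no filter, 125 with the block, 1282 with the crossed block and 0 in limma without its options (3425 at an unadjusted p under 0.05). With each library left out, 0 to 2 regulators, 0 to 12 sarcomere genes and 0 to 14 genes in all were called lower and 0 to 1 higher, and the median log2 fold change of the sarcomere genes ran from -0.94 to -0.83. The cause of these differences was not tested. TMM scaling and library totals moved the median of all genes to -0.04 and -0.09, from -0.02. Myf6 and Myl3, with means of 0.104 and 0.291 TPM, fell under the filter.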
